A study of Bubalus bubalis with 12 samples.

Results

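LOC112587105 is one of the most abundant transcripts of the buffalo ruminal wall that carries no gene symbol. It was taken from the deposited FPKM table by its name and was chosen on its high level and on its difference between the diets, so both of these are given as a description, with no test. It is 1 gene (NCBI gene identifier 112587105) of 34037 in the table, and 22972 of these were above 0 in some animal. The samples are ruminal wall from 12 Italian Mediterranean dairy buffaloes (Bubalus bubalis), taken frozen after slaughter, with 1 RNA-seq library of total RNA per animal. The control group (n = 6) was fed a total mixed ration (TMR), and the treated group (n = 6) was fed TMR with 30% green feed, which was fresh ryegrass. The paper describes both rations as equal in nitrogen and energy. Its list of components gives the treated ration less corn silage and alfalfa hay and no soybean meal, so the diets differed in more than ryegrass. FPKM divide the fragments of a gene by its length and by the depth of the library, so levels can be set side by side between genes.

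NCBI gives a name of the form LOC followed by the gene identifier to a gene that has no established symbol or described ortholog. Such a name says nothing of what the gene makes, and the role of LOC112587105 is not known here. The position of the gene, its neighbours, its sequence and any protein it encodes were not analysed here. The ruminal wall is a keratinized squamous epithelium that absorbs the short-chain fatty acids made by the microbes of the rumen and turns part of them into ketone bodies, above a connective tissue and layers of smooth muscle.

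The libraries held the markers of the epithelium at high levels and those of muscle at low levels. Keratin 5 (KRT5), which marks the basal layer, had a mean of 1493 FPKM, KRT13 of the upper layers 1572 FPKM, and SLC16A1, the carrier of lactate and ketone bodies, 647 FPKM. Desmin (DES) and smooth muscle myosin (MYH11) had means of 2.44 and 2.01 FPKM. In whole tissue, fewer cells of a type and less RNA per cell cannot be told apart. The libraries held between 10531541 and 12948372 counted fragments. Control animal 6, which had the fewest, and treated animal 6 stood apart from the rest in many genes, and correlations are given, singly or as a range, with and without both.

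LOC112587105 was high in all 12 animals. In the control animals 1 to 6 it was at 239, 249, 209, 260, 274 and 378 FPKM. In the treated animals 1 to 6 it was at 337, 496, 373, 348, 424 and 568 FPKM. The highest animal of each group was thus animal 6, and the lowest were control animal 3 and treated animal 1. The mean was 268 ± 58.2 FPKM in the control group and 424 ± 91.6 FPKM in the treated group (SD, n = 6 each). The groups overlapped in 1 control animal, since control animal 6 was above treated animals 1, 3 and 4, while the other 5 control animals were below every treated animal. Treated animals 2, 5 and 6 were higher than any control animal.

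**Figure D1:**
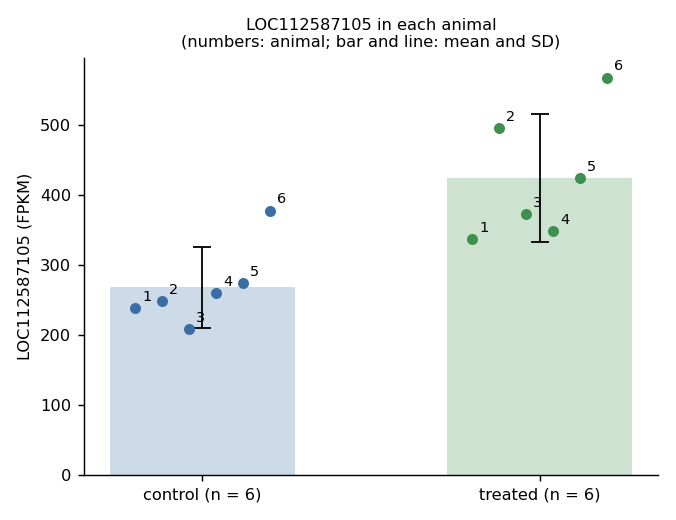
Level of LOC112587105 in FPKM (vertical axis, from 0) in each of the 6 control and 6 treated animals; points are single animals with their number, bars are group means and lines are SD. Control animal 6 lies within the range of the treated animals, and the other 5 control animals lie below all of them.

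On the log2 scale the treated group was higher by 0.66 (limma SE 0.16), and the ratio of the mean FPKM was 1.58. Without control animal 6 this ratio was 1.73, and without treated animal 6 it was 1.48. Across all genes tested, 1.51% had a nominal limma p-value below 0.05 between the diets, in either direction, and for 0 genes was the adjusted one below this limit. The gene was picked for this contrast, so nothing further is read from its difference. The coefficient of variation was 21.7% in control and 21.6% in treated animals, but 10% in the control group without control animal 6 and 16.6% in the treated group without treated animal 6. The SD of its log2 level within groups was 0.29, where the median over all genes tested was 0.38.

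These levels rest on many fragments. The deposited values move in steps of 1 read, from which 3777 to 5565 reads of LOC112587105 were recovered in the control animals and 5629 to 10109 in the treated animals. The error of counting was therefore between 0.995% and 1.63% of each value, far below the spread between animals. The gene took from 0.0292% to 0.0528% of all counted reads in control and from 0.0471% to 0.0794% in treated animals. The length behind its FPKM was 1398 bases, where the median of genes above 0 was 2547 bases. The authors counted reads by strand and at a minimum mapping quality, so reads shared with a near-identical copy elsewhere in the genome would not have been counted.

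By mean FPKM over the 12 animals (346 ± 110, SD), LOC112587105 was at rank 209 of the 22972 genes above 0, at the 99.1 percentile. The median gene above 0 had 1.39 FPKM. Of the 208 genes above it, 74 were named as ribosomal proteins, 6 were encoded by the mitochondrial genome and 43 had a LOC name. The gene at the top of this order was COX1, a mitochondrial subunit of cytochrome c oxidase, at 34666 ± 4890 FPKM. Among the 7984 genes with a LOC name above 0 it was at rank 44. By reads, which also reflect the length of the gene, its rank was 244. Within single animals its rank by FPKM was between 191 and 307 in the control group and between 147 and 214 in the treated group.

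**Figure D2:**
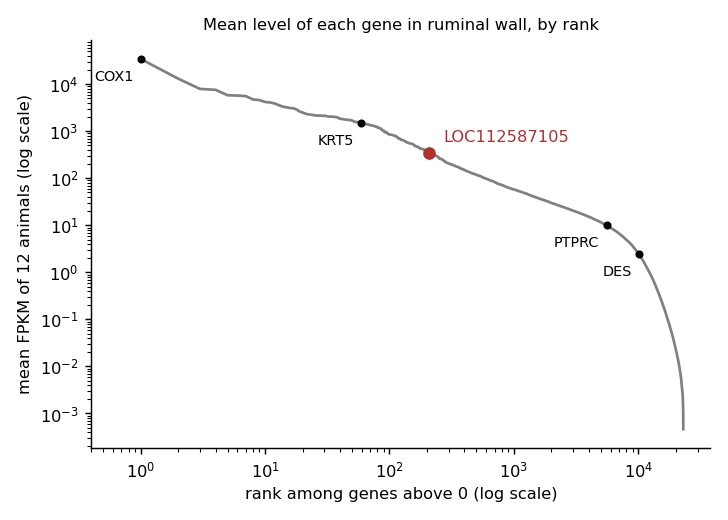
Mean FPKM over 12 animals (vertical axis, log scale) of every gene above 0 against its rank (horizontal axis, log scale), with LOC112587105 in red and COX1, KRT5, PTPRC (leukocytes) and DES (muscle) in black. LOC112587105 is at rank 209 with 346 FPKM, below the keratin and far above the markers of leukocytes and muscle.

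The genes next to it in this order mark how abundant it is, but their order cannot be told from the spread. The 5 directly above were LOC102398000 (356 FPKM), LOC102390348 (354 FPKM), SLC25A6 (350 FPKM), LOC112585460 (349 FPKM) and LOC102394622 (348 FPKM). The 5 directly below were RPL9 (340.4 FPKM), ATP5MG (339.97 FPKM), HINT1 (339.9 FPKM), IDH1 (339.7 FPKM) and CALM2 (339 FPKM). Of these, SLC25A6 exchanges ADP and ATP across the inner mitochondrial membrane, ATP5MG is a subunit of ATP synthase, RPL9 is a ribosomal protein, IDH1 is the cytosolic isocitrate dehydrogenase and CALM2 encodes calmodulin. The SD over animals was from 49.5 to 116 FPKM in these 10 genes, which is more than the 16.9 FPKM between the first and the last of the order.
Between the diets these 10 genes differed by log2 values from -0.10 to 0.52, the last in LOC112585460, which has a LOC name as well.

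Which genes followed LOC112587105 across animals was asked within the diet groups, so that the difference between the diets played no part. For each of 13669 genes (0.5 FPKM or more in 6 or more of the animals), the log2 level was centred on its group mean, and its correlation with the centred level of LOC112587105 was taken over the 12 animals. A slope on LOC112587105 was also fitted in limma with the diet group as a term. In limma the adjusted p-value was below 0.05 for 0 genes (the smallest was 0.0575), and voom on the recovered reads also gave 0. This call depended on the settings, since 115 positive and 545 negative slopes passed with median-ratio scaling, 51 and 521 with a smooth muscle and fibroblast score as covariate, and 62 and 623 of the 7975 genes with 5 FPKM or more. So did 193 and 1449 without treated animal 2, 65 and 435 without treated animal 1, and 22 and 336 without control animal 3. A permutation of the animals within diet groups gave 0 for Pearson's r and for Spearman's rho, with smallest adjusted p-values of 0.0911 and 0.205. At the smallest p-value that the draws can give, a gene alone would not pass the adjustment over 13669 genes. The draws thus limited this test, and its 0 is not a separate negative result. With all 12 animals and the model as set, no gene is therefore called as following LOC112587105, and the genes named below are those with the highest and lowest r, as a description.

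The share of genes with a small nominal p-value was large and lay mostly on the side of negative slopes. At a nominal limma p-value below 0.05, the slope was positive in 866 genes (6.34% of those tested) and negative in 2311 genes (16.9%). With median-ratio scaling of the animals, these counts were 1370 and 2275, so that the positive share of them was 37.6% in place of 27.3%. The 2 animals with the highest centred level of LOC112587105 were control animal 6 at 0.52 and treated animal 6 at 0.45 above their group mean (log2). With both left out, the counts were 127 and 225, 352 genes in all where the 12 animals gave 3177. Leaving them out also narrows the range of LOC112587105 and lowers power, so this drop alone does not show what the slopes rested on. Of the 866 and 2311 genes, 705 and 1434 kept the sign of their r in the 10 animals, as did 7687 of all 13669 genes. The median r over all genes was -0.06 with 12 animals and 0.02 with 10.

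**Figure D3:**
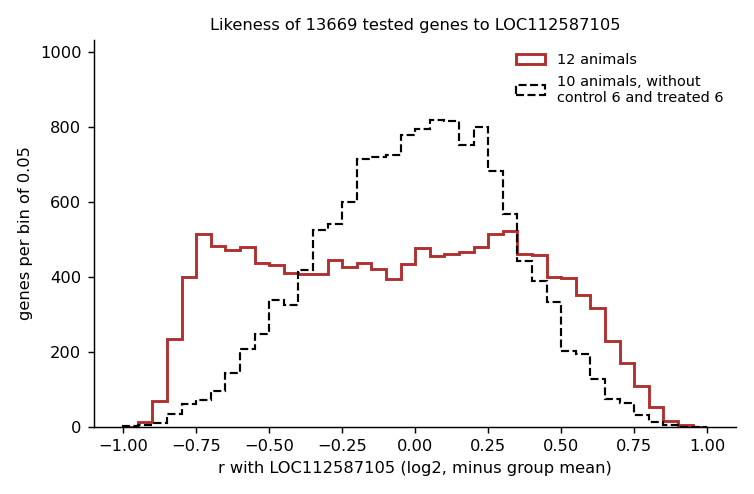
Number of genes (vertical axis, per bin of 0.05) by their correlation r with LOC112587105 across animals, on log2 FPKM centred on the group mean (horizontal axis), for 12 animals (red) and for the 10 animals without control 6 and treated 6 (dashed). With 12 animals 390 genes lie at r of 0.8 or beyond in either direction, and with 10 animals 63 do.

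Control animal 6 and treated animal 6 were also the ones lowest in the mean log2 level of the basal epithelial list. This mean was 5.52 in control animal 6 against 6.01 to 6.48 in the other control animals. It was 5.26 in treated animal 6 against 6.12 to 6.51 in the other treated animals. KRT5 was at 451 FPKM in control animal 6 against 1453 to 1756 in the other control animals, and at 498 FPKM in treated animal 6 against 1179 to 2372 in the other treated animals. The first component of variation within groups, which held 21.0% of the variance, was highest in the same 2 animals. The part of this in the level of LOC112587105 was not tested.

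Among the genes with a symbol and a mean of at least 1 FPKM, 13 of those with the highest r are described, with values from 0.85 to 0.92. The highest was CWF19L1, a relative of a protein of the yeast spliceosome, with r = 0.92 and rho = 0.92 (permutation p = 6e-05 and 0.00021, adjusted p = 0.117 and 0.478 over 13669 genes). It was at 6.69, 6.71, 6.27, 7.28, 7.94 and 8.69 FPKM in control animals 1 to 6 and at 6.79, 8.15, 6.71, 7.21, 8.26 and 8.73 FPKM in treated animals 1 to 6. In both groups animal 6 was the highest, and control animal 3 was the lowest of its group, as for LOC112587105, and without both animals 6 its r was 0.85.

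SMNDC1, a splicing factor related to the survival of motor neuron protein, came next with r = 0.92 and rho = 0.87, and with 0.76 as r without both animals 6. Control animal 6 had 12.4 FPKM of SMNDC1 and treated animal 6 had 12.2 FPKM, while the other animals lay between 7.14 and 9.02 FPKM. Next were DGUOK (r = 0.91), the kinase of deoxyguanosine in mitochondria, and SLC10A7 (0.89), a carrier protein of the SLC10 family. HEATR3 and CD40LG, the ligand of CD40 on activated T cells, both had an r of 0.87. The others were PAQR8, a membrane receptor for progesterone, AMD1, which makes decarboxylated adenosylmethionine for polyamine synthesis, TMEM62 and DCAF10, all with r of 0.86, and WDSUB1, MAP4K3, a protein kinase, and UGGT1, which checks the folding of glycoproteins in the endoplasmic reticulum, all with 0.85. Within the control group alone (n = 6) the r of these 13 genes was between 0.81 and 0.98, and within the treated group (n = 6) between 0.77 and 0.91. Without both animals 6 it was between 0.56 and 0.85.

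The r of the 13 genes across the 12 animals without centring was from 0.15 in PAQR8 to 0.75 in CWF19L1. Their median diet difference was -0.04 (log2), against 0.01 over all genes tested, and 12 of the 13 lay between -0.12 and 0.14. PAQR8 was lower in the treated group by more, at -0.72 (SE 0.43), opposite to LOC112587105. None of the 13 had a nominal limma p-value below 0.05 between the diets.

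Of genes with a LOC name, LOC102405260 was most like LOC112587105, with r = 0.93 and rho = 0.94 (permutation p = 1e-05, the smallest that the draws can give, and 2e-05, adjusted p = 0.0911 and 0.205). It was far less abundant. In control animals 1 to 6 it was at 1.98, 2.4, 1.67, 2.85, 2.64 and 6.42 FPKM, and in treated animals 1 to 6 at 3.18, 4.44, 3.91, 3.62, 4.32 and 9.92 FPKM. Apart from control animal 6, all control animals were below all treated animals, the same arrangement as in LOC112587105. Its r was 0.92 without centring and 0.83 without both animals 6. Its diet difference was 0.74 (log2, SE 0.33), with a nominal p-value below 0.05 and an adjusted p = 1.00 in limma. The next were LOC102390564 with r = 0.88 and LOC102402425 with r = 0.87, or 0.69 and 0.79 without both animals 6.

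**Figure D4:**
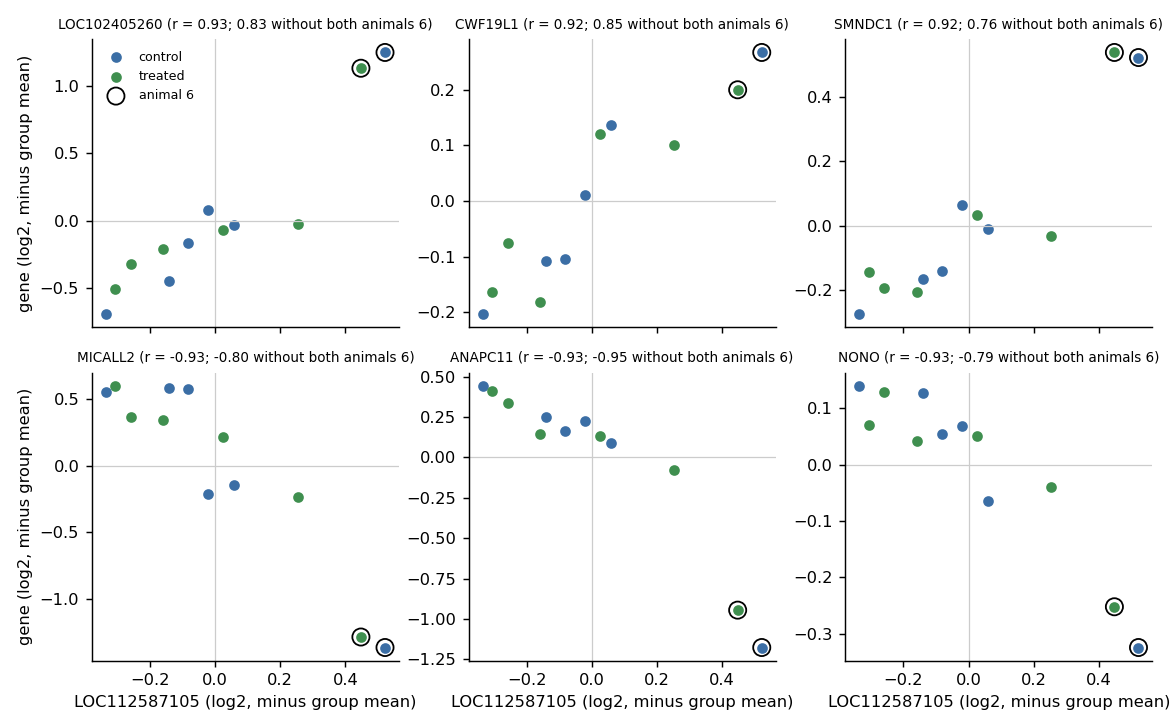
Log2 level of 6 genes, centred on the mean of the diet group (vertical axes), against that of LOC112587105 (horizontal axes) in the 12 animals (blue control, green treated; circles mark the animals numbered 6). LOC102405260, CWF19L1 and SMNDC1 rise along the axis and MICALL2, ANAPC11 and NONO fall, with both circled animals at the end, and ANAPC11 has an r of -0.95 without them.

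The 10 genes with the lowest r were between -0.93 and -0.90. MICALL2, a protein of cell junctions that binds small GTPases, had r = -0.93 and rho = -0.85 (permutation p = 3e-05 and 0.00082, adjusted p = 0.103 and 0.543). ANAPC11, the RING subunit of the anaphase-promoting complex, had r = -0.93 and rho = -0.95 (permutation p = 2e-05 and 5e-05, adjusted p = 0.0911 and 0.228). ANAPC11 was at 32.6, 30.7, 37.2, 32.1, 29.1 and 12.1 FPKM in control animals 1 to 6 and at 37.3, 26.6, 31.0, 35.5, 30.8 and 14.6 FPKM in treated animals 1 to 6. Both animals 6 were its lowest, and its r among the other 10 animals was -0.95, so that its r did not rest on them. ANAPC11 was picked on all the animals, so this is a description.

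NONO, an RNA-binding protein of nuclear paraspeckles, had r = -0.93. The others were HMOX2, the constitutive heme oxygenase, CLPP, a protease of the mitochondrial matrix, LRRC27, CCND3 (cyclin D3) and PPP1R9B (spinophilin, a partner of protein phosphatase 1), all with -0.91, and NUDC, which binds to dynein, and PAOX, an oxidase of acetylated polyamines, both with -0.90. Without both animals 6 the r of the 10 genes was between -0.95 and -0.72. All 26 genes named for their r kept its sign in the 10 animals, as did all 74 genes with r of at least 0.8 and all 316 with r of at most -0.8. Such genes were picked on values that include these 10 animals. Neither the kept sign nor the r within each diet group is therefore separate support.

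The counted length of the genes differed between both ends of the order. The 74 genes with r of at least 0.8 had a median length of 3951 bases and the 316 with r of at most -0.8 one of 2315 bases, while that of all genes tested was 2826 bases. With the genes split by length into 4 parts of equal size, the share with a nominally negative slope was 14.6%, 21.9%, 19.6% and 11.5% from the shortest to the longest, and the share with a positive slope was 5.68%, 6.29%, 7.43% and 5.94%. The part of length in the order of r was not tested.

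Genes of known pathways and cell types were taken from 17 lists. In none of the lists did a gene pass the adjusted limma test. Counts of nominal p-values below are to be read against the 6.34% and 16.9% over all genes. Counts by the sign of r are to be read against 7321 below 0 and 6348 above 0 of all 13669 genes tested. All 16 cell cycle genes had an r below 0, with a median of -0.49, and 6 of them had a nominally negative slope. TYMS, which makes thymidylate, had r = -0.44, TOP2A r = -0.40, CDK1 r = -0.49 and PCNA r = -0.01, and without both animals 6 these were 0.25, -0.16, -0.38 and -0.22. Of 10 basal epithelial genes, 9 had an r below 0 (median -0.42, 4 nominally negative). KRT5 was at -0.78, COL17A1, a collagen of hemidesmosomes, at -0.75, KRT15 at -0.17 and ITGA6 at 0.05. In the other 10 animals KRT5 was at -0.13, COL17A1 and KRT15 turned to 0.46 and ITGA6 to -0.14.

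The immediate early genes, which are transcribed within minutes of a stimulus, had the lowest median of all lists, -0.61, with 9 of 10 below 0 and 6 nominally negative. JUN was at r = -0.77, JUNB at -0.68, FOS at -0.61 and IER3 at -0.51, and without both animals 6 the last 3 were at -0.01, -0.03 and -0.02. JUN was at 24.2 FPKM in control animal 6 and 27.1 in treated animal 6, against 58.9 to 102 in the other 10 animals. In those 10 animals its r with LOC112587105 was -0.00. The median of the list in the 10 animals was -0.00 as well, that of the cell cycle list -0.05 and that of the basal list 0.16. Leaving out both animals 6 also narrows the range of LOC112587105. These medians alone therefore do not show what the medians with all animals rested on.

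The list of cytosolic heat shock genes, which also holds the mitochondrial HSPD1, had a median of -0.46. In it 8 of 9 genes were below 0 and 4 were nominally negative, HSPD1 among them. HSP90AB1, the constitutive cytosolic HSP90, was at r = -0.88 and remained at -0.80 without both animals 6. HSPD1 was at -0.73, HSP90AA1 at -0.46 and HSPA8 at 0.26, and without both animals 6 at -0.44, 0.18 and -0.03. The median of the list without both animals 6 was 0.08. Among antioxidant genes, thioredoxin (TXN) was at r = -0.86 and at -0.71 without both animals 6, while the 11 genes of the NRF2 list had a median of -0.10, with 3 nominally negative, and of -0.11 without both animals 6.

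**Figure D5:**
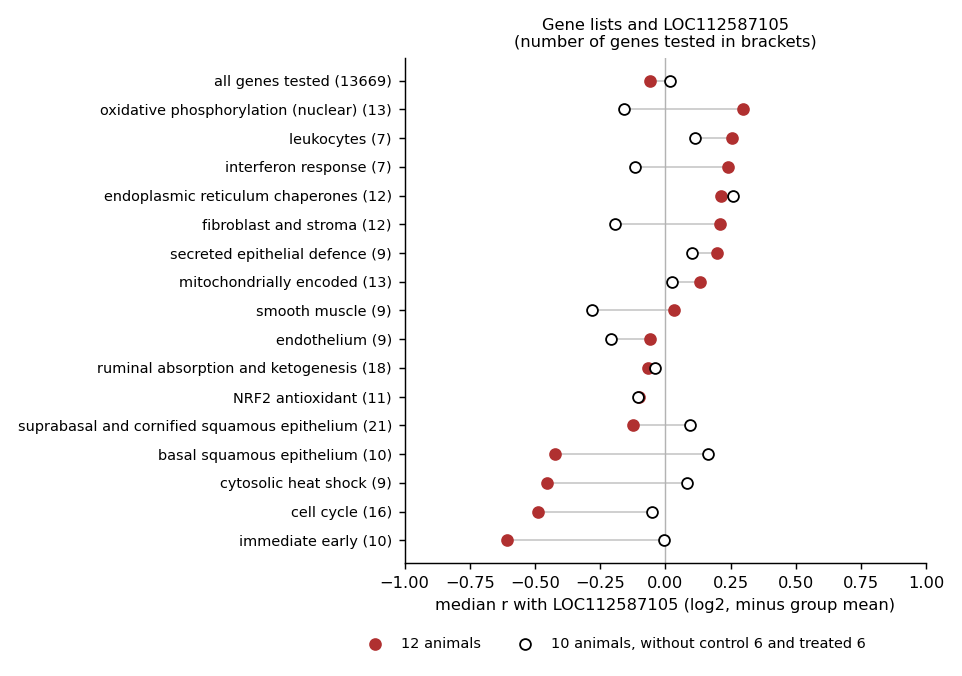
Median r with LOC112587105 (horizontal axis, log2 levels centred on the group mean) of the genes of each list with at least 5 genes tested, and of all genes tested, with 12 animals (red) and with the 10 animals without control 6 and treated 6 (open). The immediate early, cell cycle, heat shock and basal epithelial lists lie at -0.61 to -0.42 with 12 animals and at -0.05 to 0.16 with 10.

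The list of endoplasmic reticulum chaperones, which also holds XBP1, had the most nominally positive slopes, 4 of 12, with XBP1 among these. In it 9 of the 12 genes had an r above 0 (median 0.21, and 0.26 without both animals 6). HSPA5, the chaperone BiP, was at r = 0.65 and XBP1, a transcription factor of the unfolded protein response, at 0.61, while HSP90B1 was at -0.04 and CALR at 0.18. Without both animals 6, HSPA5 was at 0.14, XBP1 at 0.30, HSP90B1 at 0.26 and CALR at 0.38.

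The lists of other cell types with at least 7 genes tested had medians from -0.06 to 0.26. Of 12 fibroblast and stroma genes 11 had an r above 0 (median 0.21, 0 nominal), with COL3A1 at 0.33, but without both animals 6 the median was -0.19 and COL3A1 was at -0.39. Smooth muscle genes had a median of 0.03 (1 of 9 nominally negative), endothelial genes -0.06 (0 of 9 nominal) and leukocyte genes 0.26 (1 of 7 nominally positive, AIF1 at 0.69). Without both animals 6 these medians were -0.28, -0.21 and 0.11, and AIF1 was at 0.36. The endothelial median was -0.80 within the control group and 0.46 within the treated group, a difference that was not tested. Of the genes of enteric glia and neurons only S100B was tested, at r = 0.43 and, without both animals 6, at -0.18. The summed level of the smooth muscle genes was from 29.4 to 50.2 FPKM in control and from 16.7 to 41.5 FPKM in treated animals, and that of the fibroblast genes from 53.0 to 319 and from 23.1 to 205 FPKM.

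Lists of the work of the ruminal epithelium had medians on both sides of 0. The 18 genes of absorption and ketogenesis had a median of -0.07 (2 nominally negative), with SLC16A1 at -0.45, and without both animals 6 these were -0.04 and -0.17. The 21 genes of the suprabasal and cornified layers had a median of -0.12, with 3 nominally positive and 6 nominally negative. Of these, DSG3 and TGM3 were at 0.62 and 0.61 and KRT13 at -0.24. In the other 10 animals the median of this list turned to 0.10, and DSG3, TGM3 and KRT13 were at 0.05, 0.34 and -0.15. The nuclear genes of oxidative phosphorylation had a median of 0.30 (0 of 13 nominally positive and 2 negative), and of -0.16 without both animals 6. The medians were 0.13 in the mitochondrially encoded genes (0 of 13 nominal), 0.24 in the interferon response (0 of 7) and 0.20 in secreted epithelial defence (0 of 9), where S100A8, at 4759 FPKM, had r = 0.52. Without both animals 6 these medians were 0.02, -0.12 and 0.10, the interferon list having turned below 0, and S100A8 was at 0.10. With median-ratio scaling the medians of the absorption, NRF2 and endothelial lists, like that of all genes, turned from below to above 0, and those of the other lists kept their sign.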

How the data were processed

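The authors trimmed the reads (Trimmomatic 0.39), aligned them to the UOA_WB_1 genome (STAR 2.5.2b), counted them by gene and strand (featureCounts 2.0.0) and deposited FPKM. The table has 16 columns of values, of which 12 match the sample labels, while 4 match none and were not used. The source of the gene lengths behind the FPKM is not given in the sources used here. Reads and lengths were recovered from the steps of the deposited FPKM, and came out whole (within 0.01) for all 22972 genes above 0.

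LOC112587105 and the gene lists were chosen with earlier results of these data known. Analyses used log2(FPKM + 0.01), limma 3.58.1 (trend) in R 4.3.3, Python 3.11.15, numpy 2.4.6 and scipy 1.17.1. Slopes were fitted for 13669 genes (0.5 FPKM or more in 6 or more of the animals), with Benjamini-Hochberg adjustment over all of them, and permutation p-values are two-sided, from 100000 draws within diet groups. The methods were run on simulated data, in which the noise of each gene was drawn separately. The real genes varied together across animals, so these runs did not test how often the slope test errs here. The p-values of limma judge a slope or a difference against the spread between animals.

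Named by rule are the 5 genes above and below LOC112587105 in mean FPKM, the 15 highest and 10 lowest by r with a symbol and at least 1 FPKM, the 3 highest with a LOC name, and up to 4 of the most abundant genes per list, of which some are not reported here. The tissue markers, and the values of JUN, KRT5 and SMNDC1 by animal, were chosen after values were seen. The replicate numbers of the labels were not treated as pairs in the main model. The alternatives are named with their effects at the end.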

Additional observations from a re-analysis of the deposited data

Results flagged for a closer look

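In the groups of 6 animals, each gene named for its rank or its r was checked for 1 animal far from the others by the gap to the nearest value over the range of the group (Dixon's ratio, above 0.625). Chance gives about 1 in 20 groups, and 74 groups of 37 genes were checked, of which 15 had such an animal. It was an animal 6 in all 15. LOC112587105 itself was not among them, since the ratio of control animal 6 was 0.613 and that of treated animal 6 was 0.310. Most of these genes were picked for their likeness to LOC112587105, in which both animals 6 were the highest, so the 15 are not independent of each other or of that choice.

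In control animal 6 the values above the other 5 animals were 12.4 FPKM in SMNDC1 (others 7.14 to 9.02), 22.7 in DGUOK (14.9 to 17.5), 5.37 in SLC10A7 (3.04 to 3.52) and 4.06 in PAQR8 (0.917 to 2.02). They were also 21.5 FPKM in TMEM62 (13.2 to 15.8), 10.8 in DCAF10 (7.38 to 8.57), 16.7 in WDSUB1 (9.92 to 11.7), 40.6 in UGGT1 (23.2 to 27.5) and 6.42 in LOC102405260 (1.67 to 2.85). Values below the other 5 were 131 FPKM in SLC25A6 (348 to 441), 12.1 in ANAPC11 (29.1 to 37.2) and 15.4 in NUDC (27.8 to 34.1).

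In treated animal 6 the values above the other 5 animals were 12.2 FPKM in SMNDC1 (7.28 to 8.59), 22.5 in TMEM62 (13.1 to 15.2) and 9.92 in LOC102405260 (3.18 to 4.44).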

How the results depend on the processing

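The diet difference of LOC112587105 was higher in treated animals under all alternatives, with 0.57 to 0.77 (log2) when each animal was left out and 0.68 without both animals 6, and its rank stayed between 202 and 219 when each was left out. The counts of slopes with an adjusted limma p-value below 0.05, 0 in both directions, were also 0 with pseudocounts of 0.1 and 1, all genes above 0, robust empirical Bayes, no diet group, ranks of LOC112587105, voom and the replicate block. Positive and negative slopes then passed in 115 and 545 genes after median-ratio scaling, in 51 and 521 with a smooth muscle and fibroblast score as covariate, and in 62 and 623 of the 7975 genes with at least 5 FPKM. The cause was not tested in any of these settings, the last of which also adjusts over fewer genes. Leaving out each animal gave 0 to 193 and 0 to 1449, with 22 and 336 without control animal 3, 65 and 435 without treated animal 1, and 193 and 1449 without treated animal 2. At a nominal p-value, leaving out each animal gave 315 to 1047 positive and 1105 to 2895 negative slopes, with 315 and 1105 without control animal 6 and 548 and 1368 without treated animal 6. Nominal counts were 1370 positive after median-ratio scaling, 225 and 414 with no diet group, 411 positive with ranks, and 127 and 225 without both animals 6, which was chosen after seeing the data, as were voom and the permutations.

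The replicate numbers of the labels were not treated as pairs in the main model, and whether they pair the animals was not settled. Same-numbered animals had correlations of deviations from -0.02 to 0.28, with a mean of 0.12 against -0.02 for other pairs. Of the 6 control animals, 3 correlated best with their own number. With the replicate block the nominal counts were 153 and 154, and the slope of TMEM62 turned to -0.12, the only sign that changed among the 26 genes named for their r in the alternatives run. Over these alternatives their slopes stayed at an adjusted p-value of 0.05 or more in 512 cases and went below it in 103, all in the settings named above. The animals with the highest level of LOC112587105 in both groups carry the number 6 in the sample descriptions, which this block uses, while the sample titles number these animals differently. Counting error of at most 1.63% does not limit the level of LOC112587105.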
